A study of Drosophila melanogaster with 12 samples.

Results

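The adult muscle precursors of Drosophila are myoblasts that lie against the epithelium of the notum, the part of the larval wing disc that forms the back of the thorax. They later fuse into the flight muscles. The genes described here are 6 that mark these cells, namely twi, Him, zfh1, htl, stumps and Mef2. They were taken by name and matched by their FlyBase identifiers, and all 6 were found among the 14869 genes of the count table and passed the filter on low counts that left 8346 genes. The choice rests on what is known of these cells and uses no value of these libraries, although earlier results of these data were known.

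RNA of 3rd instar wing discs was sequenced from 4 genotypes with 3 independently prepared libraries each. ΔBAH mutAT1, ΔBAH and ASH1 WT larvae all carried ash1[10]/ash1[22] in a w[1118] background. They differed in a transgene that expresses EGFP fused to ASH1, a Trithorax group histone methyltransferase, in which the BAH domain was deleted and the first AT hook mutated in ΔBAH mutAT1, only the BAH domain was deleted in ΔBAH, and the protein was full length in ASH1 WT. Wild-type larvae were w[1118] without a transgene. The tubulin promoter drives each transgene in all cells from 1 shared landing site, so a line is 1 insertion, and age beyond the larval stage and sex are not given in the sources used here. The ash1[10]/ash1[22] background without a transgene was not analysed here, so the mutant alleles and the transgene cannot be told apart in any comparison with wild type.

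In the disc the precursors multiply and are held back from differentiation, and later they switch to making muscle. Twist, the product of twi, is a bHLH factor that specifies mesoderm and is kept on in the precursors by Notch. Mef2 is the MADS-box factor that turns on muscle differentiation genes, and the products of Him and zfh1 are repressors that hold Mef2 activity back. Heartless, made by htl, is an FGF receptor, and Stumps is the adaptor that carries its signal, as it does for the tracheal FGF receptor Breathless.

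Total counts were between 15083960 and 39180697 per library, and each member had at least 74 counts in each of the 12 libraries. The level of ash1, which sums endogenous and transgenic reads, was 1.56 to 5.40 times the wild-type mean in the 9 transgenic libraries and 0.865 to 1.13 times in wild type. The laboratory's sample numbers fall into 3 blocks, called here A, B and C by rising number, and the libraries differed by block in a trend on exon length. Against block C, genes with up to 1500 bases of exon were high in block B and those over 6000 bases low. Block A lay between. At the exon length of zfh1 the log2 trend in blocks A, B and C was 0.03, -0.31 and 0.35 in wild type. In ΔBAH mutAT1 it was -0.06, -0.45 and 0.25. For genes over 6000 bases the median log2 difference of block B from block C was -0.77 in ΔBAH mutAT1, -1.07 in ΔBAH, -1.07 in ASH1 WT and -0.74 in wild type. For genes up to 1500 bases it was 0.47, 0.89, 0.97 and 0.48 in the same order. The study used 3 sequencing runs, but whether the blocks are these runs is not stated. ΔBAH mutAT1 and wild type have 1 library in each block, whereas ΔBAH and ASH1 WT have replicate 1 in block B and replicates 2 and 3 in block C. Results are therefore given without the blocks, with the block as a covariate, and, as an analysis chosen after these values were seen, with a length offset that removes each library's own trend on exon length.

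Against wild type, stumps and zfh1 were the precursor genes with negative log2 fold changes in all 3 lines, largest in size in ΔBAH mutAT1. In ΔBAH mutAT1 stumps fell by 0.70 on the log2 scale and passed the test, a call that was lost with the length offset alone and in 8 of 12 fits without 1 library. For zfh1 the log2 fold change there was -0.67 and was not called, with an edgeR unadjusted p of 0.114 against 0.0953 for htl. It passed the test with the length offset and with the number block as a covariate. The call with the length offset was kept in 4 of 12 fits without 1 library. twi, Him, htl and Mef2 passed no test against wild type in the main analysis, and the direction of twi and Him depended on 1 library in each of ΔBAH and ASH1 WT. In RNA of whole discs, fewer precursor cells and less RNA per cell cannot be told apart.

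**Figure D1:**
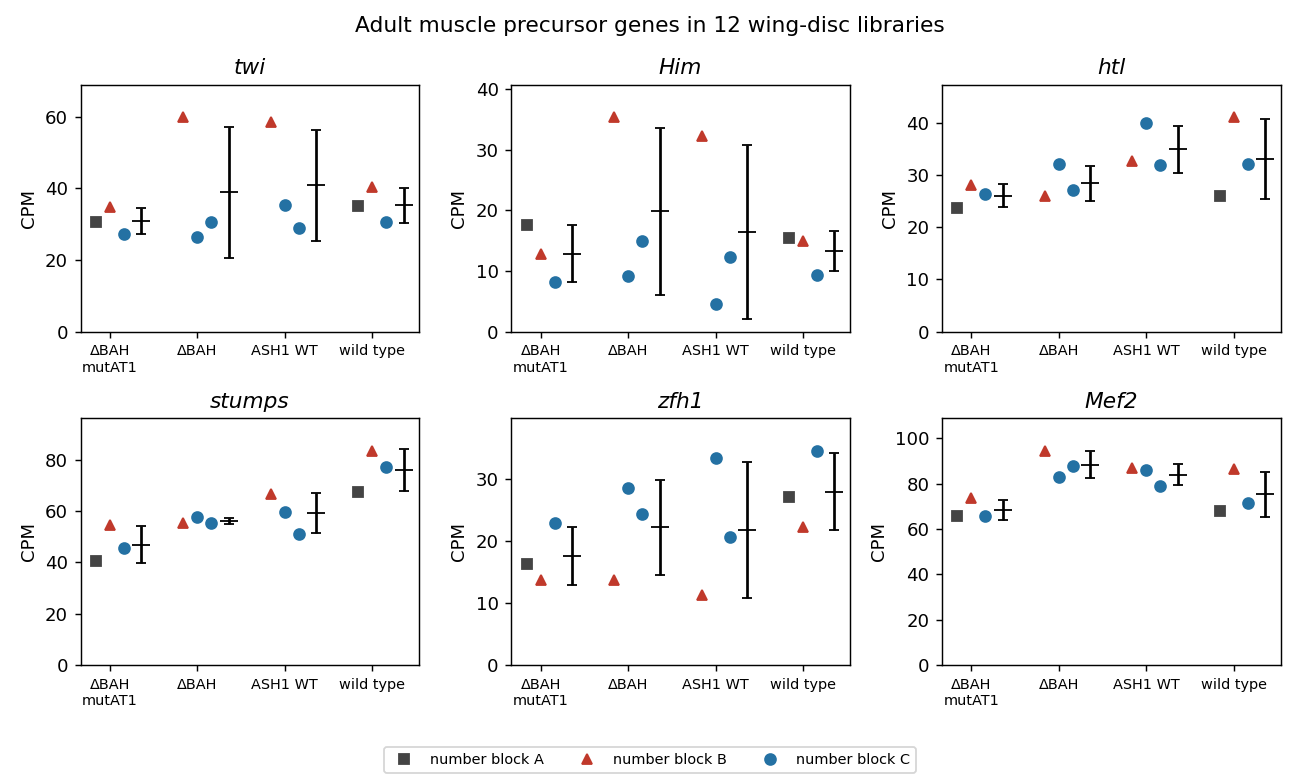
CPM (counts scaled to a common library size by TMM) of the 6 genes in 12 wing-disc libraries by genotype. Symbols are single libraries by number block, and the horizontal dash and bar are the mean and SD (n = 3). stumps lies between 40.5 and 66.7 CPM in the 9 transgenic libraries and between 67.4 and 83.5 CPM in wild type, while twi and Him are highest in the block B libraries of ΔBAH and ASH1 WT.

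stumps encodes the adaptor of the FGF receptors. In CPM, the count scaled to a common library size, it measured 40.5, 54.6 and 45.6 in the 3 libraries of ΔBAH mutAT1, against 67.4, 83.5 and 77.3 CPM in wild type. All libraries of ΔBAH mutAT1 lay below all of wild type, as did those of 6.61% of genes, with means of 46.9 ± 7.11 and 76.1 ± 8.12 CPM (SD, n = 3 each). The log2 fold change was -0.70 (SE 0.15) and the Benjamini-Hochberg adjusted p of edgeR's quasi-likelihood F-test was 0.0434. It was the 1 member of 6 called in this comparison, in which 2.17% of all genes tested were called and 0.827% were called as lower. No other member had an unadjusted p below 0.05 there, as 8.08% of genes did. stumps was also the 1 member called with DESeq2 (4.24% of genes called) and with limma-voom (2.37%).

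The same gene measured 55.2, 57.6 and 55.4 CPM in ΔBAH, against the wild-type values above. In ASH1 WT it measured 66.7, 59.7 and 51.1 CPM, with each library of both lines below those of wild type, ASH1 WT replicate 1 only just. Without overlap 7.17% of genes were lower in ΔBAH and 6.96% in ASH1 WT. The log2 fold changes of -0.44 (SE 0.15) and -0.36 (SE 0.15) had edgeR adjusted p of 0.303 and 0.495 and are not called. For the mean of the 3 lines the log2 fold change was -0.50 (SE 0.12, edgeR adjusted p = 0.0553). The comparisons share the wild-type libraries, so the low values of the lines are not separate pieces of evidence. Among all genes tested, 3.18% had 9 transgenic libraries below all 3 of wild type.

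The call on stumps was narrow. It was lost in 8 of the 12 fits that left out 1 library (replicate 1 or 3 of ΔBAH mutAT1, 2 or 3 of ΔBAH, 2 of ASH1 WT, or any of wild type, edgeR adjusted p of 0.0677 to 0.209), with the log2 fold change between -0.82 and -0.60, and also with no filter (edgeR adjusted p = 0.06) and with only the 6 libraries compared (0.0914). With the number block as a covariate the edgeR adjusted p was 0.00114 in ΔBAH mutAT1, 0.0169 in ΔBAH and 0.0323 in ASH1 WT, where 6.45%, 6.25% and 7.3% of all genes were called. Within blocks A, B and C, stumps in ΔBAH mutAT1 differed from the wild-type library of the block by -0.73, -0.61 and -0.76 on the log2 scale. For ΔBAH the difference was -0.60 in block B and -0.45 in block C, and for ASH1 WT -0.32 and -0.48.

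stumps did not follow the length trend of its libraries. In block B it was higher than 85.0% to 94.7% of genes of its exon length class in the block difference, in the 4 genotypes. With the length offset alone its SE was 0.33, and the log2 fold change of -0.60 in ΔBAH mutAT1 was not called (edgeR adjusted p = 0.553). With both the length offset and the number block it was called again in ΔBAH mutAT1 (-0.62, edgeR adjusted p = 4e-04) and in ΔBAH (-0.41, 0.0156), among 9.59% and 11% of genes, and not in ASH1 WT (-0.30, 0.0641).

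Set against Mef2, the member with the highest CPM, stumps stood apart in a measure that needs no scaling between libraries. The ratio of stumps to Mef2 was 0.615, 0.740 and 0.691 in ΔBAH mutAT1, 0.584, 0.694 and 0.630 in ΔBAH, and 0.767, 0.693 and 0.647 in ASH1 WT, against 0.991, 0.965 and 1.08 in wild type. The 9 transgenic libraries thus lay below the 3 of wild type, as did 2.73% of the other genes tested when set against Mef2. This ratio was chosen after the values were seen and is given as a description. It carries the changes of both genes: Mef2 itself had log2 fold changes of -0.14 in ΔBAH mutAT1, 0.23 in ΔBAH and 0.16 in ASH1 WT, not called in the main analysis.

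**Figure D2:**
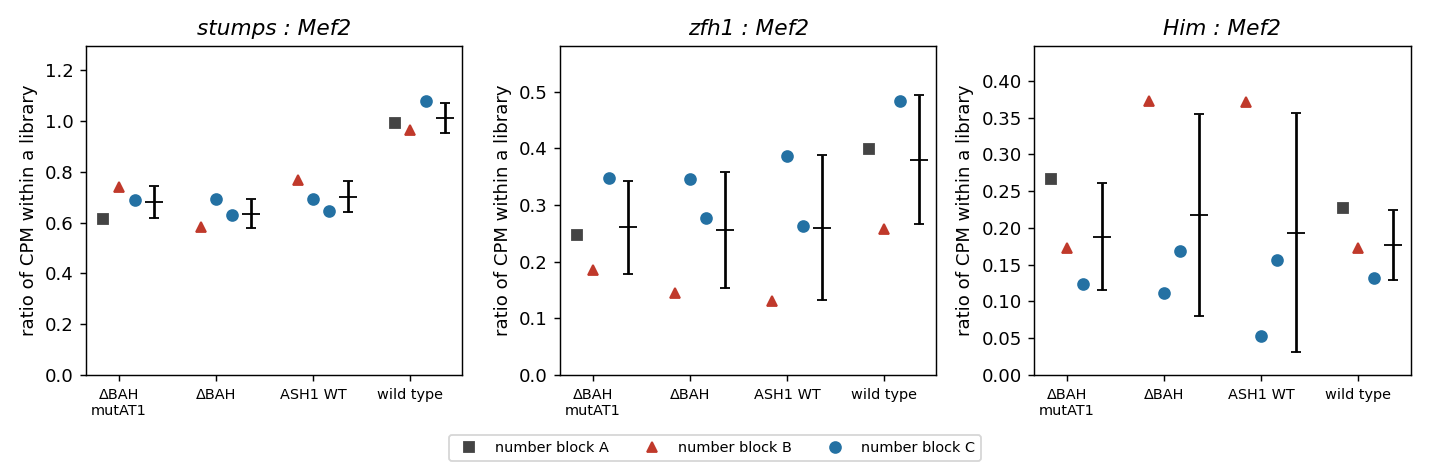
Ratio of CPM of stumps, zfh1 and Him to that of Mef2 within each library, by genotype. Symbols are single libraries by number block, and the dash and bar are the mean and SD (n = 3). The stumps ratio spans 0.584 to 0.767 in the transgenic lines and 0.965 to 1.08 in wild type, without overlap, whereas the ratios of zfh1 and Him overlap.

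zfh1 encodes a zinc finger and homeodomain repressor that acts against Mef2. It measured 16.3, 13.7 and 22.9 CPM in ΔBAH mutAT1, 13.7, 28.7 and 24.4 CPM in ΔBAH, and 11.4, 33.4 and 20.7 CPM in ASH1 WT, against 27.1, 22.3 and 34.7 CPM in wild type. The groups overlap, and the lowest library of each of the 4 genotypes was that of block B. The log2 fold changes were -0.67 (SE 0.39, edgeR adjusted p = 0.933) in ΔBAH mutAT1, -0.33 (SE 0.39, 1) in ΔBAH and -0.36 (SE 0.39, 1) in ASH1 WT.

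Within blocks, zfh1 in each line was below the wild-type library. The log2 difference of ΔBAH mutAT1 from wild type was -0.73, -0.71 and -0.60 in blocks A, B and C. That of ΔBAH was -0.70 and -0.39 in blocks B and C, and that of ASH1 WT -0.97 and -0.36. With the block as a covariate zfh1 was called in ΔBAH mutAT1 (log2 fold change -0.68, SE 0.18, edgeR adjusted p = 0.0446) and for the mean of the lines (-0.62, SE 0.15, 0.0216), where 11.1% of genes were called. It was not called in ΔBAH (edgeR adjusted p = 0.118) or ASH1 WT (0.0813). With the length offset and the block together it was called in each line, with log2 fold changes of -0.58, -0.45 and -0.49 and edgeR adjusted p of 0.0094, 0.0486 and 0.0346 in ΔBAH mutAT1, ΔBAH and ASH1 WT, where 9.59%, 11% and 11% of genes were called, and for the mean of the lines (-0.51, 0.00496, 15.5%).

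zfh1 has 6915 bases of exon, and its block difference was that of its length class. It ranked above 51.3% of that class in ΔBAH mutAT1, 59.0% in ΔBAH, 38.4% in ASH1 WT and 57.4% in wild type. After the length offset zfh1 measured 17.0, 18.7 and 19.3 CPM in ΔBAH mutAT1, 21.0, 21.1 and 19.5 CPM in ΔBAH, and 18.0, 24.7 and 17.4 CPM in ASH1 WT, against 26.6, 27.7 and 27.2 CPM in wild type. On this scale all transgenic libraries lay below all of wild type. The wild-type libraries, with 1076, 657 and 563 counts, had an SD of 0.527 CPM (n = 3). An SD of 3 values after an offset chosen once the values were seen is a poor guide to precision.

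The length-adjusted log2 fold change of zfh1 was -0.57 (SE 0.14, edgeR adjusted p = 0.0355) in ΔBAH mutAT1, where 4.04% of genes were called. In ΔBAH it was -0.40 (SE 0.14, 0.159), in ASH1 WT -0.44 (SE 0.14, 0.126), and for the mean of the lines -0.47 (SE 0.11, 0.0214), with 4.08%, 3.87% and 6.27% of genes called. On that scale 9.47%, 9.96% and 9.68% of genes were lower without overlap in ΔBAH mutAT1, ΔBAH and ASH1 WT, and 4.2% had all 9 transgenic libraries below wild type. The call in ΔBAH mutAT1 was kept in 4 of 12 fits without 1 library (log2 fold change -0.62 to -0.52) and that of the mean in 9 of 12 (-0.54 to -0.44). Both calls were lost without any 1 wild-type library, and that in ΔBAH mutAT1 also without any of its own libraries or replicate 2 or 3 of ΔBAH (edgeR adjusted p up to 0.155). The exons of zfh1 overlap those of an antisense RNA over 315 bases, and whether the counting used strand is not given in the sources used here.

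**Figure D3:**
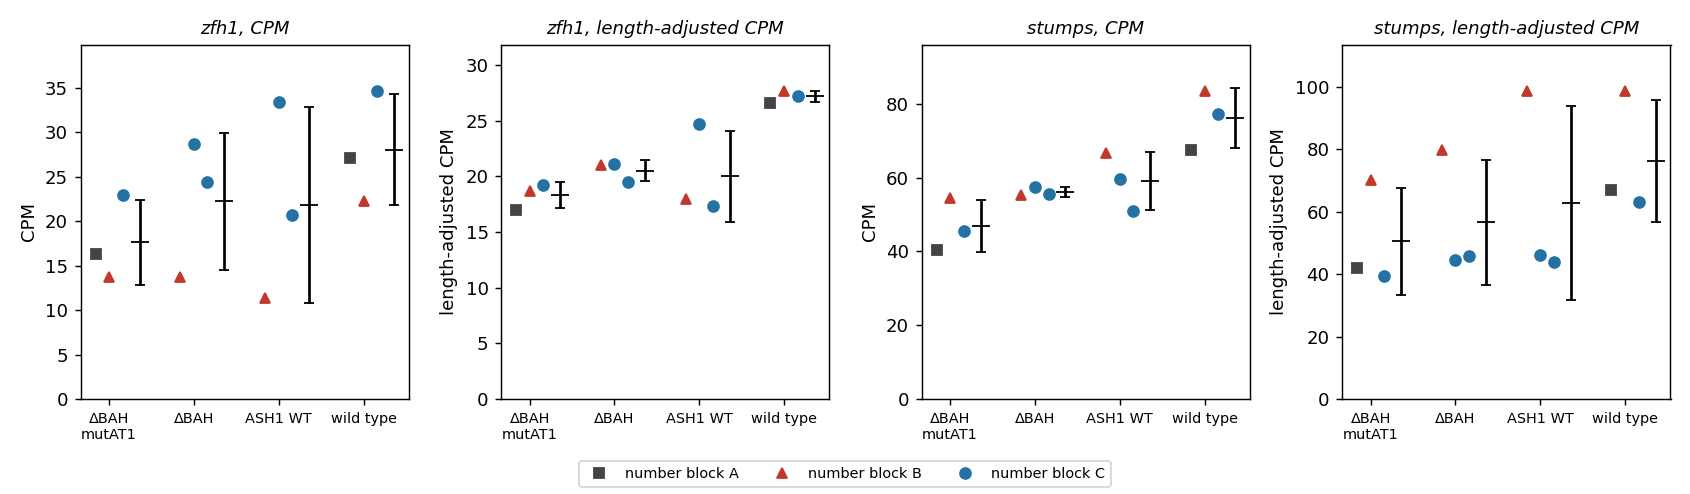
zfh1 and stumps by genotype in CPM and in length-adjusted CPM, in which each library's trend on exon length was removed. Symbols are single libraries by number block, and the dash and bar are the mean and SD (n = 3). Adjusted zfh1 spans 17.0 to 24.7 CPM in the transgenic lines and 26.6 to 27.7 CPM in wild type, while adjusted stumps overlaps between 39.5 to 98.7 CPM and 63.1 to 98.6 CPM.

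Him, the other repressor of Mef2 activity, was the most variable member without the length offset, with a biological coefficient of variation of 54.1%, above that of 90.1% of genes. It measured 17.6, 12.8 and 8.18 CPM in ΔBAH mutAT1, 35.4, 9.26 and 14.9 CPM in ΔBAH, and 32.3, 4.55 and 12.4 CPM in ASH1 WT, against 15.4, 14.95 and 9.42 CPM in wild type. The values of replicate 1 of ΔBAH and ASH1 WT, both of block B, were more than those of any other library, and ASH1 WT replicate 2 was lowest.

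twi, the mesoderm factor, shared this pattern. It measured 30.5, 34.8 and 27.4 CPM in ΔBAH mutAT1, 59.9, 26.4 and 30.6 CPM in ΔBAH, and 58.4, 35.4 and 28.9 CPM in ASH1 WT, against 35.1, 40.4 and 30.6 CPM in wild type. Its highest values were again those of replicate 1 of ΔBAH and ASH1 WT, and the other libraries lay between 26.4 and 40.4 CPM.

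The log2 fold change of Him was -0.05 (95% interval -1.46 to 1.37) in ΔBAH mutAT1, 0.58 (-0.84 to 2.00) in ΔBAH and 0.31 (-1.10 to 1.73) in ASH1 WT. For twi it was -0.19 (-0.91 to 0.52), 0.14 (-0.57 to 0.86) and 0.21 (-0.51 to 0.93) in the same order, and none of these values was called. Without ΔBAH replicate 1 the values in ΔBAH were -0.12 for Him and -0.29 for twi, and without ASH1 WT replicate 1 those in ASH1 WT were -0.65 and -0.14. With 920 bases of exon, Him is in the length class that was high in block B against block C. Its block difference ranked above 88.6% of that class in ΔBAH and 97.3% in ASH1 WT, against 69.3% in ΔBAH mutAT1 and 75.7% in wild type. twi ranked above 97.5% of its class in ΔBAH and 94.8% in ASH1 WT. After the length offset twi was still at 61.8 and 61.2 CPM in those 2 libraries, against 26.2 to 38.8 CPM in the other 10. The exons of twi overlap those of asRNA:CR42742 and of CG9897 over 536 bases in all.

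htl encodes the FGF receptor Heartless. It measured 23.7, 28.1 and 26.4 CPM in ΔBAH mutAT1, 25.9, 32.1 and 27.2 CPM in ΔBAH, and 32.7, 40.0 and 31.9 CPM in ASH1 WT, against 25.9, 41.1 and 32.1 CPM in wild type. The groups overlap, and 7 of the 9 transgenic libraries lay within the wild-type range. The log2 fold change was -0.34 (95% interval -0.75 to 0.07, edgeR adjusted p = 0.849) in ΔBAH mutAT1, -0.22 (-0.63 to 0.19) in ΔBAH and 0.08 (-0.33 to 0.49) in ASH1 WT.

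Mef2, the differentiation factor, varied least of the members without the length offset, with a biological coefficient of variation of 15.5% that only 4.25% of genes were below. It did not follow its length class, ranking above 96.3% to 97.1% of it in the block difference, and with the offset its values spread to 77.8 ± 31.8 CPM in wild type (SD, n = 3). It measured 65.9, 73.8 and 65.9 CPM in ΔBAH mutAT1, 94.7, 82.9 and 88.0 CPM in ΔBAH, and 87.1, 86.2 and 79.0 CPM in ASH1 WT, against 68.0, 86.6 and 71.6 CPM in wild type. In ΔBAH mutAT1 2 of 3 libraries lay below the wild-type range and in ΔBAH 2 of 3 lay above it, so that both overlap wild type. The log2 fold change was -0.14 (SE 0.13) in ΔBAH mutAT1, 0.23 (SE 0.13) in ΔBAH and 0.16 (SE 0.13) in ASH1 WT, and none was called in edgeR's test (adjusted p of 0.82 to 1). With the length offset and the block together Mef2 was called as higher in ΔBAH (0.32, edgeR adjusted p = 0.0405), and with the block alone it was not (0.219).

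**Figure D4:**
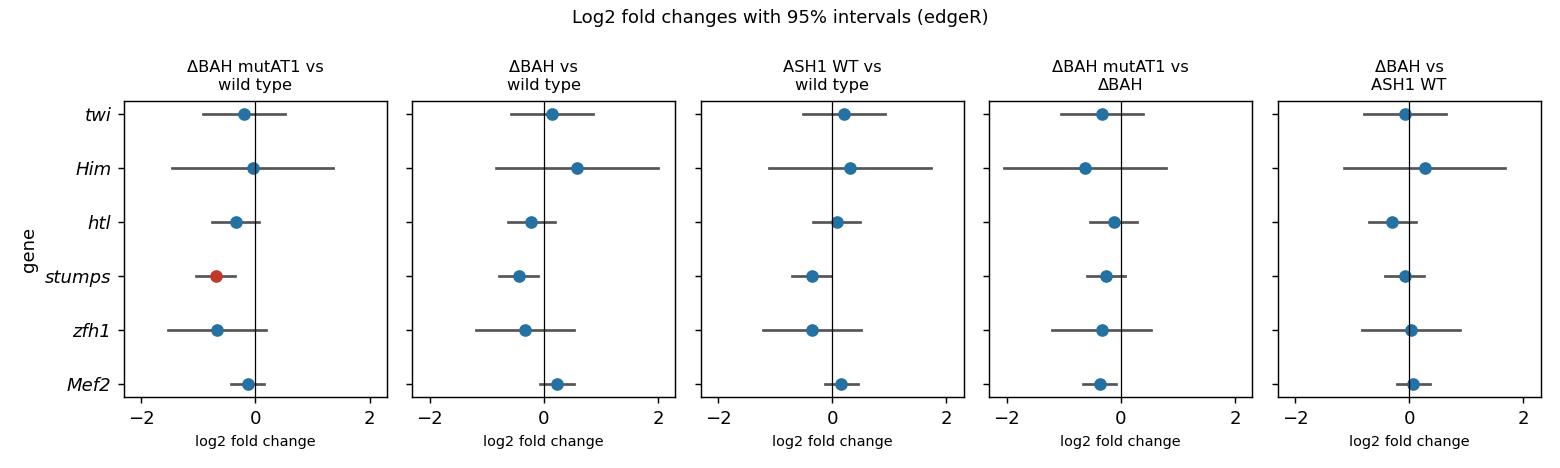
Log2 fold changes of the 6 genes in 5 comparisons from edgeR without a block, as points with 95% intervals, and 0 marked by a line. The red point is the 1 value with an adjusted p below 0.05, stumps in ΔBAH mutAT1 against wild type at -0.70. All 6 points lie left of 0 in both comparisons of ΔBAH mutAT1, which share its libraries. Against ΔBAH the side of twi and Him depends on ΔBAH replicate 1.

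In ΔBAH mutAT1 against wild type 6 of 6 members had negative log2 fold changes, with a median of -0.27, where the median of all genes was -0.003. In ΔBAH 3 of 6 were negative (median -0.04) and in ASH1 WT 2 of 6 (median 0.12), with medians of all genes of 0.002 and 0.007. No member was called in ΔBAH or in ASH1 WT in edgeR's test, with 1.93% and 1.92% of all genes called. At an unadjusted p below 0.05 there was 1 in each, stumps, with 8.84% and 8.75% of genes. None was called with DESeq2, with 4.51% and 4.19% of genes called, or with limma-voom, with 1.92% and 1.71%. For the mean of the lines, with 3.15% of genes called, the count was 0 in edgeR, with stumps at an unadjusted p of 0.00183 (10.7% of genes were below 0.05), 1 with DESeq2 (6.21% of genes) and 0 with limma-voom (3.18%). The summed level of the 6 genes was 194.5 to 217.7 CPM in ΔBAH mutAT1, 236.9 to 284.7 CPM in ΔBAH and 224 to 288.6 CPM in ASH1 WT, against 238.9 to 288.7 CPM in wild type.

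The comparison of ΔBAH with ASH1 WT concerns the loss of the BAH domain. No member was called in edgeR's test between ΔBAH and ASH1 WT, nor was any of 8346 genes (0%), with 103 genes (1.23%) at an unadjusted p below 0.05 and 5 (0.0599%) called by DESeq2. No member had an unadjusted p below 0.05 or a call in DESeq2 or limma-voom. Log2 fold changes were between -0.30 for htl (95% interval -0.71 to 0.12) and 0.27 for Him (-1.14 to 1.68). stumps differed by -0.08 (-0.42 to 0.26) and Mef2 by 0.07 (-0.22 to 0.37). Libraries of these lines with the same replicate number share a block, so a pairing by replicate number cannot be told apart from the block. The replicate block changed no call.

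The comparison of ΔBAH mutAT1 with ΔBAH concerns the mutated AT hook. All 6 log2 fold changes were negative in ΔBAH mutAT1 against ΔBAH, with a median of -0.33 and a median of all genes of 0.001. Without ΔBAH replicate 1, of block B, those of twi and Him turned positive, at 0.09 and 0.07. The comparison shares the ΔBAH mutAT1 libraries with that against wild type, so both counts of negative values are not separate evidence. No member was called by edgeR, DESeq2 or limma-voom. The share of all genes called was 0.0479% in edgeR, 0.276% in DESeq2 and 0.0359% in limma-voom, and 1.95% had an unadjusted p below 0.05. Mef2 had the smallest p, with 65.9 to 73.8 CPM in ΔBAH mutAT1 against 82.9 to 94.7 CPM in ΔBAH, and its log2 fold change was -0.37 (SE 0.13, unadjusted p = 0.0182, edgeR adjusted p = 1). With the block as a covariate it was -0.35 (SE 0.09, unadjusted p = 0.00336, adjusted p = 0.476). stumps also did not overlap, at 40.5 to 54.6 CPM against 55.2 to 57.6 CPM in ΔBAH, and its log2 fold change was -0.26 (SE 0.15, edgeR adjusted p = 1). Of all genes 2.14% were lower without overlap.

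Genes of the notum epithelium, on which the precursors lie, and genes of the wing pouch, which holds no precursors, also had mostly negative values in ΔBAH mutAT1, and their part in the values of the precursor genes was not tested. Against wild type 8 of 9 notum genes were negative (median log2 fold change -0.22), as were 6 of 6 pouch genes (median -0.24). Against ΔBAH 9 of 9 notum genes were negative (median -0.24) and 4 of 6 pouch genes (median -0.02). Of all genes, 8.08% had an edgeR unadjusted p below 0.05 against wild type and 1.95% against ΔBAH. No notum gene was called in edgeR, and 2 of 9 had an unadjusted p below 0.05 in each comparison. Against wild type these were sr, with a log2 fold change of -0.73 (SE 0.28, edgeR unadjusted p = 0.0256), and pnr, with -0.39 (SE 0.14, 0.0175). Both were lower in ΔBAH mutAT1 without overlap, as were 6.61% of genes. The summed level of the notum genes was 673.7 to 730.6 CPM in ΔBAH mutAT1, 761.5 to 840.5 CPM in ΔBAH and 729.5 to 865.6 CPM in ASH1 WT, against 763.8 to 867.9 CPM in wild type. The Iroquois genes mirr, ara and caup, homeobox genes of notum identity, had the highest levels per length of the list. Their log2 fold changes in ΔBAH mutAT1 against wild type were -0.31 (SE 0.16), -0.25 (SE 0.13) and -0.22 (SE 0.12). The 1 gene of the list with a positive value was toe, a Pax gene, which measured 41.1 to 51.0 CPM in ΔBAH mutAT1, against 33.6 to 44.9 CPM in wild type.

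**Figure D5:**
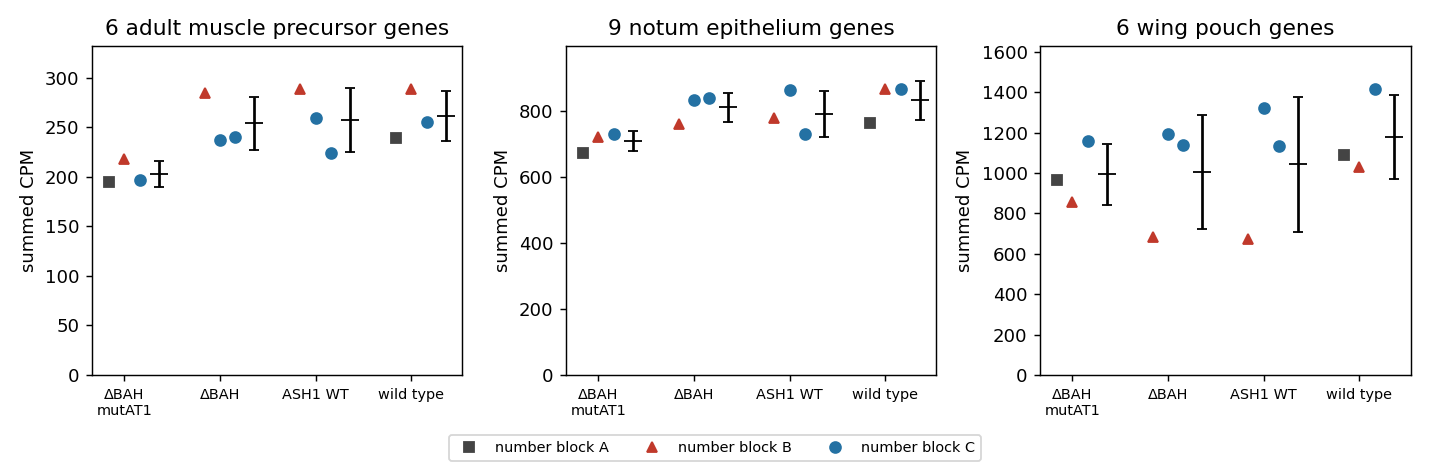
Summed CPM of the 6 adult muscle precursor genes, of 9 notum epithelium genes and of 6 wing pouch genes by genotype. Symbols are single libraries by number block, and the dash and bar are the mean and SD (n = 3). Both the precursor genes (194.5 to 217.7 CPM) and the notum genes (673.7 to 730.6 CPM) lie below all wild-type libraries in ΔBAH mutAT1, and the pouch genes are lowest in block B of ΔBAH and ASH1 WT.

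The wing pouch, which forms the blade, gave 858.6 to 1158 CPM over 6 genes in ΔBAH mutAT1, 681.5 to 1195 CPM in ΔBAH and 671.2 to 1321 CPM in ASH1 WT, against 1029 to 1417 CPM in wild type. Between ΔBAH mutAT1 and wild-type libraries of the same replicate number, which share a block, the log2 difference of the pouch sum was -0.18, -0.26 and -0.29 for replicates 1, 2 and 3. It was -0.18, -0.27 and -0.25 for the notum sum, -0.44, -0.29 and -0.44 for the sum of 3 tracheal genes, and -0.30, -0.41 and -0.38 for the sum of the 6 precursor genes. All 4 sums were thus lower in ΔBAH mutAT1 in each of the 3 pairs, although the ranges of pouch and trachea overlap. This was common among the lists used here. The sums of FGF pathway, flight muscle specification, myoblast fusion, muscle structure and disc identity genes were also lower in each pair, by log2 differences of -0.21 to -0.03. These lists are not all separate, since disc identity shares vg with flight muscle specification and nub with the pouch. Those of Notch pathway, hemocyte, fat body and neuron genes were not lower in every pair. No pouch gene was called in edgeR, and 1 had an unadjusted p below 0.05, in ΔBAH. Its most abundant genes per length, nub, Dll and salr, which encode wing and limb transcription factors, were detected in each library. The 3 genes of disc identity, vg, nub and sd, had 0 calls in edgeR, also at an unadjusted p below 0.05, and summed to 762.4 to 1167 CPM in ΔBAH mutAT1, 674.7 to 1229 CPM in ΔBAH and 657.5 to 1198 CPM in ASH1 WT, against 882 to 1203 CPM in wild type. Markers of the labelled tissue were thus present in each library.

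The FGF pathway around htl and stumps was measured through 13 genes, of which 12 were tested and 0 were called in edgeR in any of the 6 comparisons, also at an unadjusted p below 0.05. In ΔBAH mutAT1 against wild type 10 of 12 log2 fold changes were negative, with a median of -0.13. The most abundant per length were Ras85D, the Ras GTPase, drk, an adaptor that recruits the exchange factor for Ras, and aop, a repressor at the end of the pathway. The ligands of Heartless, ths and pyr, are named here after their values were seen. ths measured 25.9, 14.9 and 38.4 CPM in ΔBAH mutAT1, 10.8, 56.4 and 56.3 CPM in ΔBAH, and 8.50, 59.8 and 45.1 CPM in ASH1 WT, against 33.9, 14.95 and 47.3 CPM in wild type, so that it followed the number block. pyr stayed between 19.1 and 26.9 CPM throughout. rl, a kinase of the pathway, is listed at 0 in all libraries. This 0 was not checked against the reads and is not read here as absence of expression.

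Of the Notch pathway, which acts on twi, 18 genes were tested and 0 were called in any comparison in edgeR, also at an unadjusted p below 0.05. Their median log2 fold change was 0.08 in ΔBAH mutAT1, 0.11 in ΔBAH and 0.15 in ASH1 WT against wild type. The highest levels per length (RPKM) were those of E(spl)malpha-BFM and E(spl)mbeta-HLH, targets of Notch, and the corepressor gro. E(spl)malpha-BFM was high in replicate 1 of ΔBAH and ASH1 WT, at 215.9 and 242.8 CPM, and in ΔBAH mutAT1 replicate 2, at 170.2 CPM, against 72.2 to 129.9 CPM in wild type. All 3 are of block B.

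Genes of flight muscle specification, 9 tested, had 0 calls in edgeR in any comparison, also at an unadjusted p below 0.05. The highest levels per length (RPKM) in the list were those of Ama, a secreted adhesion protein, and exd and hth, which encode homeodomain partners. hth alone gave 876.5 to 1553 CPM per library, and vg is also in the list of disc identity. In RNA of whole discs the share of the precursors in these values was not tested. In ΔBAH mutAT1 against wild type 7 of 9 were negative with a median of -0.19. For myoblast fusion, with 11 genes tested and Crk, Arf51F and blow highest per length, 8 of 11 were negative there with a median of -0.03 and 0 were called, with 1 at an unadjusted p below 0.05 there and in ASH1 WT and 2 in ΔBAH. Of the same list, lmd was at most 0.872 CPM and sing at most 0.457 CPM in any library.

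Several genes of muscle structure, which build the contractile fibres, were near 0. The list had 20 measured genes, and 14 passed the filter. In RPKM, which is CPM per kilobase of exon, the flight muscle actin gene Act88F averaged 0.0803 RPKM, the myosin light chain gene Mlc1 0.501 RPKM and the troponin gene TpnC4 0.0518 RPKM, while Tm1, a tropomyosin gene also used outside muscle, reached 82.5 RPKM. Act57B and Act87E followed at 14.6 and 9.29 RPKM. None of the list was called in edgeR, with 1 gene, Mlc2, at an unadjusted p below 0.05 in each line. Its log2 fold changes were -0.76, -0.80 and -0.91 in ΔBAH mutAT1, ΔBAH and ASH1 WT (edgeR unadjusted p of 0.0338, 0.0272 and 0.0152). All transgenic libraries lay below all of wild type, as did those of 3.18% of genes.

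Per kilobase of exon, the members ranked in the lower and middle part of the disc transcriptome. In ΔBAH mutAT1 the order was Him at 14.0 ± 5.11 RPKM, twi at 12.95 ± 1.56, stumps at 8.38 ± 1.27, Mef2 at 7.46 ± 0.494, htl at 6.36 ± 0.546 and zfh1 at 2.55 ± 0.687 (SD, n = 3). In wild type it was twi at 14.8 ± 2.05 RPKM, Him at 14.4 ± 3.62, stumps at 13.6 ± 1.45, Mef2 at 8.21 ± 1.07, htl at 8.06 ± 1.86 and zfh1 at 4.06 ± 0.9 (SD, n = 3). In wild type the first 3 do not differ beyond their spread, nor do Mef2 and htl, and zfh1 lies below all. In ΔBAH mutAT1 stumps and Mef2 are within their spread. Over the 12 libraries the members stood between the 19.3 and 49.4 percentile of 7642 genes with a known exon length. These levels rest on BDGP6 exon lengths and carry the length trend described above.

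In CPM without the length offset, the 6 genes did not vary as 1 unit over the 12 libraries. Pearson's r of log2 CPM, given as a description over libraries that share blocks and genotypes, was 0.72 between twi and Him and -0.78 between Him and zfh1, and 0.29 between stumps and zfh1. After centring within blocks these became 0.45, -0.54 and 0.83. The member closest to the mean of the other 5 was Mef2 (0.59), followed by stumps (0.58) and twi (0.57), and Him and zfh1 had negative values (-0.18 and -0.56). After centring within blocks the value was 0.08 for zfh1 and -0.23 for Him. All these r carry the length trend, as exon lengths run from 920 bases in Him to 9188 in Mef2. Centring within blocks does not remove it. In block B the log2 trend at the length of Him was 0.68 in ASH1 WT and 0.18 in wild type. At the length of zfh1 it was -0.66 and -0.31. The part of the trend in these r was not tested.

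The genes most like the mean of the 6 over the 12 libraries were uncNacbeta (r = 0.91), FBgn0085388 (0.91), GstE13 (0.90), meso18E (0.88) and CG16820 (0.87). Ald1, mthl4, FBgn0031421, CG13678 and CG15093 followed with 0.85 to 0.86. After centring within blocks GstE13 (0.96), Ir51a (0.94), CG6356 (0.93), Ada1-1 and meso18E (0.91 each) came first. CG13436, mthl4, stl, FBgn0085388 and uncNacbeta followed with 0.89 or just below. These are descriptions, and none of these genes is in a list used here. mthl4 was the only one of them called for the mean of the lines against wild type (log2 fold change -1.05, edgeR adjusted p = 0.0105). Ir51a, CG6356, Ada1-1, stl and CG13678 were low, with means of 2.84, 0.703, 0.395, 1.21 and 1.29 CPM. The study lists Ir51a and Ada1-1 among genes reduced in ΔBAH mutAT1 against ΔBAH. These r were also made without the length offset.

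Markers of other tissues were looked at in the same libraries, since larval discs can carry attached cells. Of 7 fat body genes all were detected, and their summed level was 22.7 to 265.4 CPM in ΔBAH mutAT1, 43.2 to 176.6 CPM in ΔBAH and 16.7 to 113.8 CPM in ASH1 WT, against 2973, 17.5 and 377.1 CPM in wild type replicates 1, 2 and 3. Lsp1beta, Lsp2 and Lsp1gamma, which encode larval serum proteins, had the highest levels per length. Lsp1beta, Lsp1gamma and apolpp, the gene of a lipid carrier, fell in the mean of the lines (log2 fold changes -3.95, -5.22 and -3.46, edgeR adjusted p of 0.0398, 0.019 and 0.037). Without wild type replicate 1 the log2 fold change of stumps in ΔBAH mutAT1 was -0.77 (edgeR adjusted p = 0.0677). The part of fat body RNA in the values of the precursor genes was not tested.

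Hemocyte genes, 10 in the table and 9 tested with 0 called by edgeR and 2 at an unadjusted p below 0.05 in each line against wild type, summed to 71.6 to 101.4 CPM in ΔBAH mutAT1, 68.6 to 120.8 CPM in ΔBAH and 105 to 150.3 CPM in ASH1 WT, against 66.3 to 93.4 CPM in wild type. crq, PPO2 and Pxn were highest per length, and Pxn and Hml, which define these cells, were detected in each library, while lz was at 0 in 5. zfh1 and Mef2 can also be expressed outside the precursors, and the share from other cells was not tested. Tracheal cells, which use Stumps as well, were covered by 3 genes, dys, verm and serp. They summed to 736.2 to 1188 CPM in ΔBAH mutAT1, 942.4 to 1361 CPM in ΔBAH and 929.4 to 1256 CPM in ASH1 WT, against 996.5 to 1448 CPM in wild type, with 0 called, also at an unadjusted p below 0.05. verm and serp, chitin deacetylases, are not confined to trachea, and the defining genes btl and trh were not analysed here. Neuron genes summed to 11.3 to 46.2 CPM in all libraries, most of it from elav, with Syt1 and nSyb next per length, with VGlut at 0 in 9 libraries and 0 of 4 tested genes called (1 at an unadjusted p below 0.05, in ASH1 WT and the mean of the lines).

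The members lie at separate places of the genome (BDGP6 annotation): twi at 2R:22985374-23048325 and Mef2 at 2R:9913496-9958858, zfh1 at 3R:30765926-30789202, htl at 3R:18045216-18052984, stumps at 3R:14577217-14608079 and Him at X:18209427-18210741. htl and Mef2 are on the minus strand and the others on the plus strand. All are protein-coding genes, and the counts cover their exons on an older build.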

How the data were processed

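Poly-A RNA of wing discs was sequenced in 12 libraries. Per the labels, the authors aligned reads with TopHat2 2.0.9 to dm3 and deposited counts per gene made with HTSeq 0.5.4p3, with edgeR, limma and R 3.0.1 also named in their processing notes. Strand use in counting is not given in the sources used here. Replicates are separate RNA preparations of a genotype, and p-values measure the spread between them.

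The deposited counts were fitted with edgeR 4.0.16 in R 4.3.3 (quasi-likelihood test, TMM, filterByExpr with a minimum count of 10, prior count 0.125). All 12 libraries entered 1 model by genotype, with Benjamini-Hochberg adjustment over 8346 genes and a threshold of 0.05. Library totals were 15083960 to 39180697. Exon lengths and positions came from BDGP6, not the authors' build, and matched 13524 of 14869 genes. A gene was named if it was a member, was called in a companion list (up to 3 by p), was among the 3 highest RPKM of a list, or was among the 10 most like the members. ths, pyr, rl, lmd, sing, toe, Act88F, Mlc1, TpnC4 and the other genes outside this rule were named after their values were seen. The members and lists were chosen with earlier results of these data known.

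Alternatives were RLE size factors, DESeq2 1.42.0, limma-voom (limma 3.58.1), no filter, the number block, a replicate block, prior count 2, only the libraries compared, and leaving out each library. The length offset (lowess of each library's log2 deviation on log2 exon length, 7642 genes), its combinations with either block and with leaving out libraries, and the replicate block within only the libraries compared were chosen after seeing the data. Deviations from the genotype mean were alike at equal replicate numbers in ΔBAH and ASH1 WT (r of 0.813, 0.588 and 0.487). The same held for ΔBAH mutAT1 and wild type (0.423, 0.439 and 0.486), and no other groups had a positive r at each number. In these groups equal numbers share a block, so pairing by replicate and the block cannot be told apart.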

Additional observations from a re-analysis of the deposited data

How the results depend on the processing

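Of 1260 fold changes of the members under alternatives 1198 kept their direction, and 60 of the 62 that changed sign did so on leaving out a library. The others were Him in ASH1 WT against wild type with limma-voom (-0.01) and htl there with the number block (-0.02). Members called in ΔBAH mutAT1 numbered 1, against 0 with no filter, 0 with only the libraries compared, 2 with the number block, 2 with length offset and number block, and 0 to 1 on leaving out a library. With the length offset alone the 1 called was zfh1 in place of stumps. In ΔBAH the count of 0 became 1 with the number block and 3 with length offset and number block (stumps and zfh1 lower, Mef2 higher), and stayed 0 to 0 on leaving out a library. In ASH1 WT 0 became 1 with the number block, 1 with length offset and number block, and 0 to 1 on leaving out a library. For the mean of the lines 0 became 1 with DESeq2, 2 with the number block, 1 with the length offset, 2 with length offset and number block, 1 with length offset and replicate block, and 0 to 1 on leaving out a library. Between the lines the count was 0 throughout. With the replicate block stumps in ΔBAH mutAT1 was at -0.70 (edgeR adjusted p = 0.046), and this block alone changed no other call. The cause of these changes was not tested. On leaving out a library, log2 fold changes in ASH1 WT against wild type were -0.14 to 0.47 for twi, -0.65 to 0.75 for Him, -0.07 to 0.38 for htl and -0.30 to 0.59 for Mef2. In ΔBAH they were -0.29 to 0.40 for twi, -0.12 to 0.92 for Him, -0.37 to 0.06 for htl and -0.30 to 0.63 for Mef2. In ΔBAH mutAT1 they were -0.39 to 0.19 for Him and -0.34 to 0.34 for Mef2. For the mean of the lines they were -0.08 to 0.16 for twi, -0.04 to 0.43 for Him, -0.29 to 0.14 for htl and -0.05 to 0.52 for Mef2. In ΔBAH against ASH1 WT they were -0.54 to 0.29 for twi, -0.44 to 1.23 for Him, -0.46 to 0.31 for stumps, -0.28 to 0.47 for zfh1 and -0.52 to 0.55 for Mef2. In ΔBAH mutAT1 against ΔBAH they were -0.59 to 0.09 for twi, -0.96 to 0.07 for Him, -0.22 to 0.07 for htl, -0.47 to 0.15 for stumps and -0.60 to 0.27 for Mef2. Over all genes, calls in ΔBAH mutAT1, ΔBAH, ASH1 WT and the mean of the lines numbered 181, 161, 160 and 263, against 538, 522, 609 and 927 with the number block, 354, 376, 350 and 518 with DESeq2, 309, 312, 296 and 479 with the length offset, and 733, 840, 840 and 1181 with both. With 3 libraries a genotype, the SE of zfh1 in ΔBAH mutAT1 was 0.39 without and 0.14 with the length offset, and that of stumps 0.15 and 0.33.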
